A study of Mus musculus with 16 samples.

Results

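The genes described here are those of glycolysis, of glucose and lactate transport and of the step that links glycolysis to the mitochondrion, in the mouse embryonal carcinoma line P19CL6, which turns into beating heart muscle when dimethyl sulfoxide (DMSO) is added to its medium. The list holds 34 genes, and 31 of them were matched by gene symbol to a probe set that names a single gene. Gpi1, Eno1 and Pfkfb1 had none and were not analysed here. Where a gene had several probe sets, the one with the brightest average signal was used. Of the 31 genes, 28 lay above a dim cutoff of 4 log2 on at least 2 arrays and were tested, among 10803 genes tested in all. Pfkfb2, Pdk2 and Pdk4 did not pass that filter. The list was drawn up with earlier results of these arrays in view, and it was known to include muscle isoforms and genes with a dip at day 4.

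Expression was measured on 16 Affymetrix arrays, 1 for each culture, and per the labels the cultures of a group were independent. The growth cultures (n = 3) received no DMSO and were kept undifferentiated by passage every 48 h. The other cultures were plated into medium with 1% DMSO, which was renewed every 48 h, and were taken after 4 days (n = 3), 6 days (n = 2), 8 days (n = 3), 10 days (n = 3) or 12 days (n = 2). All groups are of the 1 cell line, and none was kept for as long without DMSO, so DMSO cannot be told apart from time without passage. Each array reports RNA of a whole culture, in which fewer cells of a type and less RNA per cell cannot be told apart. Values are log2 signals, means are given ± SD over the arrays of a group, and signals of different genes were not compared, because each probe set has its own brightness.

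Glycolysis splits glucose into pyruvate in the cytosol and yields ATP without oxygen. Glucose enters through carriers of the Slc2a family, is trapped by hexokinase and is committed at phosphofructokinase, and pyruvate either becomes lactate, which leaves through carriers of the Slc16a family, or enters mitochondria and meets pyruvate dehydrogenase. Many steps have several isozymes encoded by different genes, some of them typical of muscle. Pluripotent cells are known to rely strongly on glycolysis, whereas adult heart muscle draws most of its energy from fatty acids, and several of these genes are textbook targets of the hypoxia-inducible factors.

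Day 8 replicate A resembled day 6 more than its own group. Across the tested genes its correlation was 0.956 to 0.967 with the other 2 day 8 arrays and 0.99 to 0.992 with the day 6 arrays, so the members' results that rest on day 8 are also given without it. The cells were checked against marker genes. The summed linear signal of 8 heart muscle markers was 62 to 86 in growth, 119 on day 8 replicate A, 1856 and 4546 on the other day 8 arrays, 32027 to 42915 on day 10 and 73998 to 76936 on day 12, with Nppa dim on all arrays. That of 5 pluripotency markers was 24209 to 30869 in growth, 390 to 639 on day 10 and 782 to 1327 on day 12. The sum of 4 early mesoderm markers was 6407 to 16285 on day 4 and at most 265 in the other groups. That of 5 endothelial and blood markers was highest on day 10, at 8756 to 14389, and the highest day 8 value, 8970, lay within that range. The globins Hbb-bh1 and Hba-x had means of 12.86 and 11.75 log2 on day 10 and 7.61 and 6.90 on day 12. Kdr, Cdh5 and Pecam1 had higher means on day 12 than on day 10. Other lists were also higher late. The sum of 4 smooth muscle markers went from 62.7 to 99.3 in growth to 13035 to 14864 on day 12, that of 4 fibroblast and mesenchyme markers from 26.3 to 34.2 to 4737 to 5607, and that of 4 endoderm markers from 24.2 to 24.9 to 1191 to 1720. That of 7 skeletal muscle markers went from 58.6 to 66.4 in growth to 338 to 487 on day 12, where Acta1 reached 8.50 log2 from 4.06 in growth. Its defining genes Myod1, Myog, Myf5 and Ckm were dim on all arrays. Of the smooth muscle markers, Myh11 was dim on all arrays. Of the endoderm markers, Sox17 and Foxa2 were dim on day 12, where Afp was 9.12 log2 and Ttr 9.74. The mean of 3 18S rRNA control probe sets was 8.04 to 8.69 log2 on day 12, above the 4.91 to 6.88 of all other arrays, and the 3′ minus 5′ difference was -0.41 to -0.19 log2 for Gapdh and 0.68 to 1.33 for Actb, with 0.87 to 0.96 in growth and 0.74 to 1.33 on day 10. The part of cell composition, and of the 18S shift, in the differences below was not tested.

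Most genes of the list had their highest mean on the last days of DMSO, while the first days were mixed. Of the 28 tested, 20 had their lowest group mean on days 4, 6 or 8, against 31.4% of all tested genes, and 22 had their highest on day 10 or 12, against 34%. The lowest mean fell on day 8 for 9 of them (5.97% of all genes) and on day 4 for 10 (17%), or for 8 (7.39%) and 11 (16.8%) without day 8 replicate A. The highest fell on day 12 for 21 (23.7%). Their median difference from growth was -0.21 log2 on day 4, -0.02 on day 6 and -0.15 on day 8, then 0.61 on day 10 and 1.14 on day 12, while the median over all tested genes lay between -0.02 and 0.01 on each of these days. On day 6, 14 members lay above growth and 14 below, and without replicate A the day 8 median was -0.05.

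A gene was called where its limma p, adjusted by Benjamini-Hochberg over the 10803 genes, lay under 0.05 and its group means differed by 1 log2 or more. On day 4 against growth, 2 of the 28 were called higher (13.3% of all tested genes) and 4 lower (13.6%). On day 6 the counts were 4 higher (14%) and 2 lower (12.9%), and on day 8 they were 5 higher (16%) and 4 lower (15%), or 6 higher (17.3%) and 3 lower (16.1%) without replicate A. These early shares lie near or below those of all genes. On day 10, 11 were called higher (18.5%) and 0 lower (19.5%), and on day 12, 15 were called higher (22.5%) and 0 lower (19.3%). In each of these last comparisons 1 member was lower at an unadjusted limma p under 0.05. Over the 6 groups, limma's F test, with at least 1 log2 between the lowest and the highest group mean, called 24 of 28 (60.9% of all genes). The exceptions were Gapdh, Pgk1 and Pkm, which missed only the limit of 1 log2, and Pfkfb4, which also missed the F test (adjusted p = 0.158). Of the 24, 6 never lay 1 log2 from growth, namely Pfkl, Aldoa, Pgam1, Eno3, Ldha and Slc16a1.

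Between successive days most calls fell between day 8 and day 10. From day 4 to day 6, 2 members rose (3.52% of all genes) and 1 fell (2.62%). From day 6 to day 8, limma called 0 higher (0%) and 0 lower (0.0185%), with 1 higher and 5 lower at an unadjusted p under 0.05. Without day 8 replicate A, 1 was higher (Slc2a4) and 2 lower (Pfkl, Aldoc), and 5.67% of all genes were called in either direction. From day 8 to day 10, 10 rose (4.62%) and 1 fell (3.19%), and the median difference was 0.82 log2 against -0.04 over all genes. Without replicate A, 9 rose and 1 fell at this step (5.79% of all genes in either direction), with a median of 0.77. From day 10 to day 12, 0 were called higher (2.88%) and 0 lower (0.185%), with 9 higher and 0 lower at an unadjusted limma p under 0.05. From day 4 to day 12, 16 rose (19%) and 0 fell (13.2%), where 3 were lower at an unadjusted p under 0.05. The comparisons of the days with growth share the growth arrays and are not independent of each other.

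**Figure D1:**
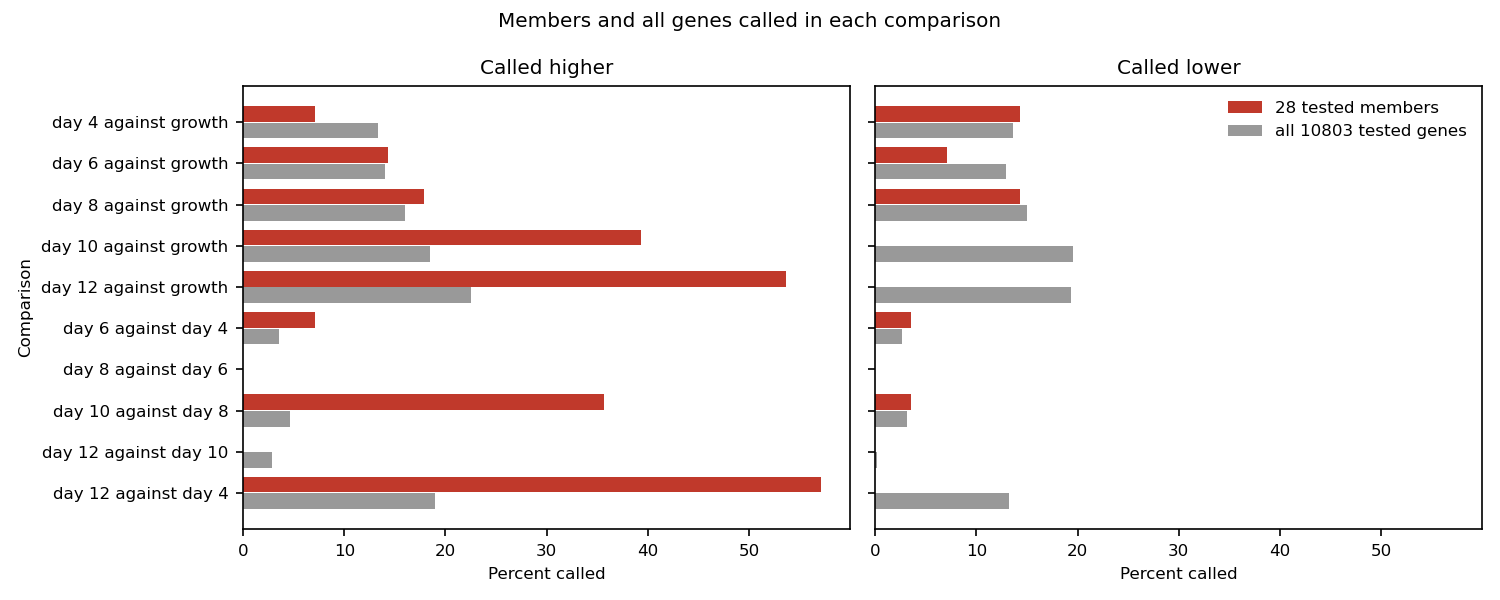
Bars give the percent of the 28 tested members (red) and of all 10803 tested genes (grey) called higher (left) or lower (right) by limma in each of 10 comparisons between groups. The red bars exceed the grey ones most on the left in the comparisons of day 10 with day 8 and of day 12 with growth or day 4, and there is no red bar on the right for day 10 or day 12 against growth.

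**Figure D2:**
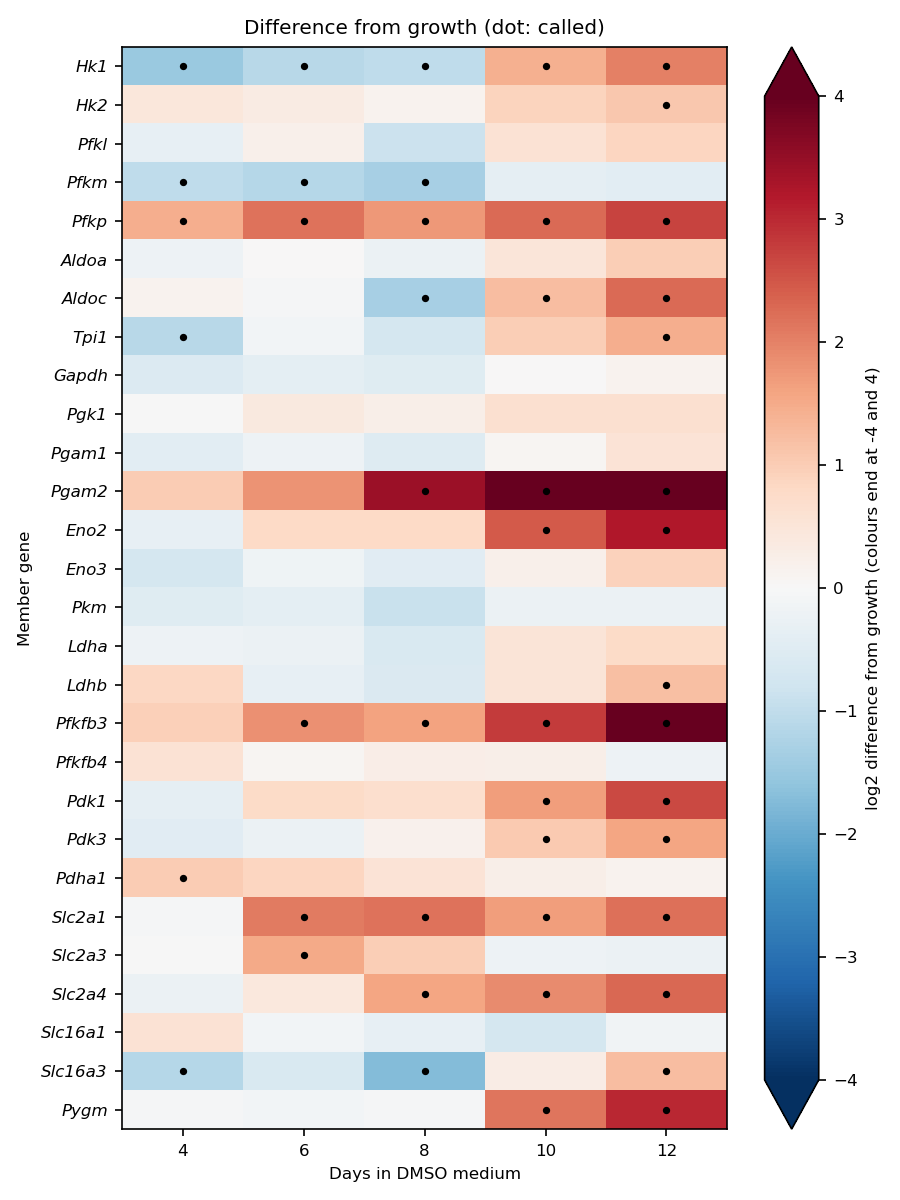
Colours give the log2 difference of each tested member from growth (rows) on days 4 to 12 of DMSO (columns), red higher and blue lower, with a dot where limma called it and colours ending at -4 and 4. Hk1, Pfkm and Slc16a3 are blue in the first columns, Pfkp is red throughout, and most rows are red on days 10 and 12.

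The glucose carriers each followed their own course. Slc2a1 (GLUT1), the carrier found in most cells, rose at a single step from day 4 to day 6 and stayed high. It read 11.44, 11.68 and 12.06 in growth, 11.86, 11.38 and 11.75 on day 4, 13.75 and 13.87 on day 6, 13.93, 13.70 and 14.09 on day 8, 13.41, 13.44 and 13.30 on day 10, and 13.79 and 14.07 on day 12. Every array from day 6 on lay above every growth and day 4 array. The step from day 4 to day 6 was 2.14 log2 (SE 0.21, adjusted p = 2.23e-05), or 4.42-fold, and the differences from growth on days 6 to 12 lay between 1.66 and 2.21. All 3 of its probe sets gave this step.

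Slc2a3 (GLUT3), the high-affinity carrier of neurons and early embryos, rose with Slc2a1 but did not stay high. Its mean was 11.54 ± 0.11 in growth, 11.54 ± 0.51 on day 4, 13.05 ± 0.04 on day 6, 12.53 ± 0.14 on day 8, 11.33 ± 0.31 on day 10 and 11.32 ± 0.35 on day 12. The rise from day 4 to day 6 was 1.51 log2 (SE 0.26, adjusted p = 0.00251), and the fall from day 8 to day 10 was called at -1.20 (SE 0.24, adjusted p = 0.00466), or -1.12 (adjusted p = 0.0209) without day 8 replicate A. The rise lost its call where limma was fitted to only the groups compared (adjusted p = 0.0685). On day 12 its 4 probe sets disagreed, with differences from growth of -1.44 to 0.00.

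Slc2a4 (GLUT4), the insulin-regulated carrier of muscle and fat, rose later. It read 5.0, 5.22 and 5.25 in growth, 4.41, 5.20 and 5.14 on day 4, 5.47 and 5.67 on day 6, 5.91, 7.0 and 7.28 on day 8, 6.98, 6.88 and 7.26 on day 10, and 7.09 and 7.84 on day 12. No array from day 6 on overlapped with growth, and within day 8 replicate A was the low one. The difference from growth was 1.57 log2 on day 8 (SE 0.32, adjusted p = 0.00102), 1.98 (adjusted p = 4.21e-05) without replicate A, and 2.31 on day 12 (SE 0.36, adjusted p = 8.34e-05), a 4.96-fold rise. From day 6 to day 8 the difference was not called with all arrays (1.16, adjusted p = 0.299) and was called without replicate A (1.57, adjusted p = 0.00482). From day 8 to day 10 Slc2a4 was not called (0.31, adjusted p = 0.566, or -0.10, adjusted p = 0.894, without day 8 replicate A). The summed markers of heart muscle, smooth muscle, mesenchyme and endoderm were also higher late, as given above, and their part was not tested.

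**Figure D3:**
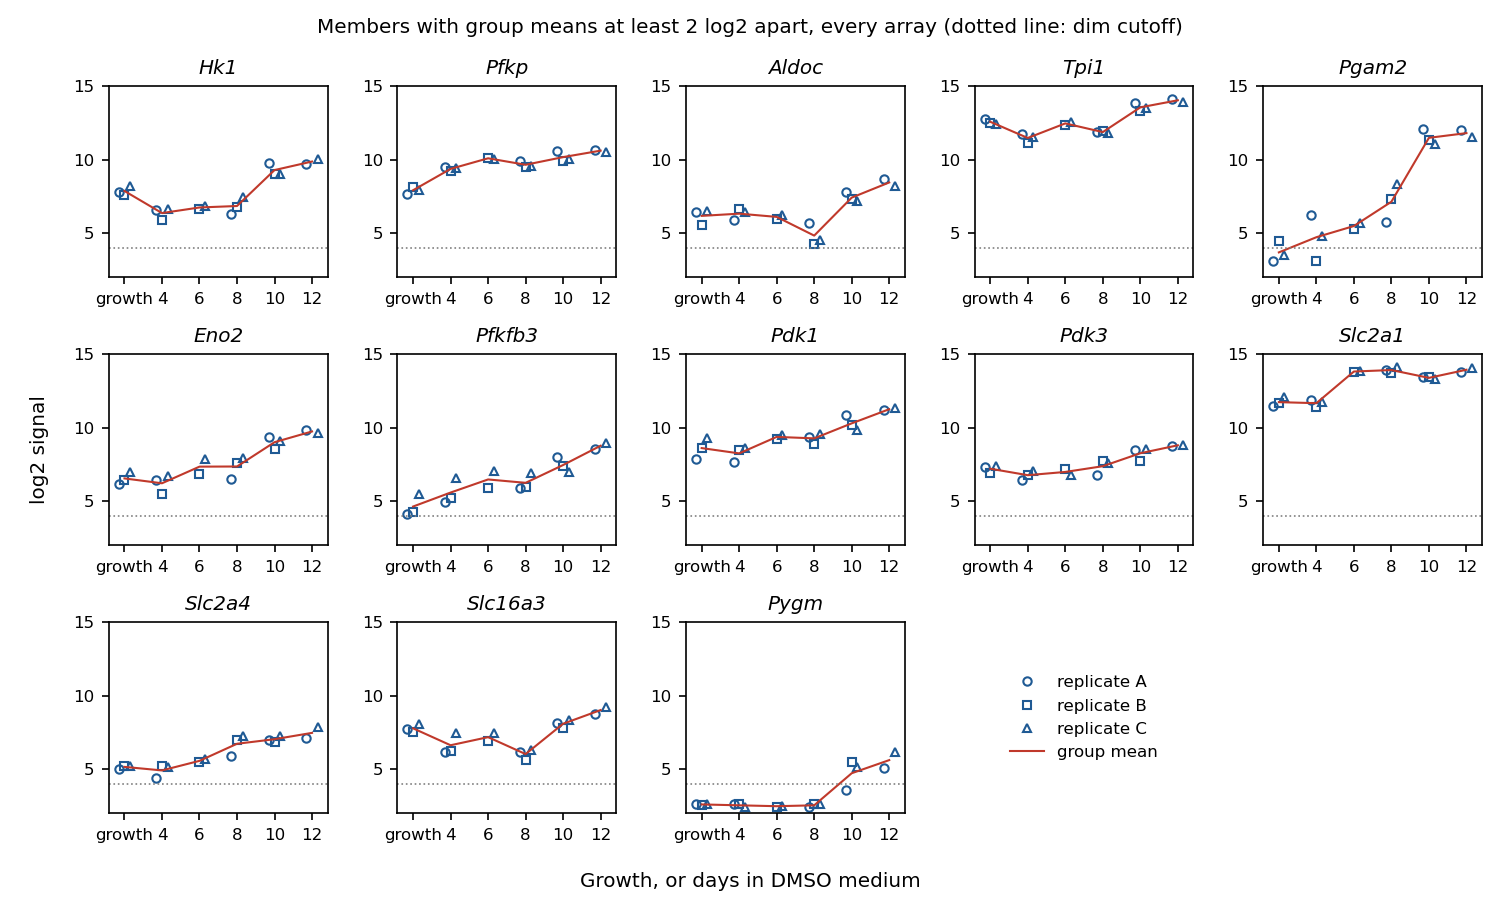
Each panel shows the log2 signal (vertical axis) of 1 of the 13 members whose group means span at least 2 log2, for every array by group (horizontal axis: growth, or days in DMSO), with replicates A, B and C as circles, squares and triangles, group means as a red line and the dim cutoff of 4 dotted. Hk1, Tpi1 and Slc16a3 dip on day 4 and lie above growth on day 12, Slc2a1 steps up on day 6, and Pgam2 climbs from near the cutoff to above 11.

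Hexokinase phosphorylates glucose and so keeps it in the cell. Hk1, the widespread form, fell and then rose past its starting level. It read 7.83, 7.58 and 8.20 in growth, 6.58, 5.91 and 6.62 on day 4, 6.67 and 6.83 on day 6, 6.34, 6.75 and 7.46 on day 8, 9.79, 9.03 and 9.04 on day 10, and 9.73 and 10.02 on day 12. The arrays of days 4 to 8 all lay below growth and those of days 10 and 12 all above it. The difference from growth was -1.50 on day 4 (SE 0.30, adjusted p = 0.000981, 2.84-fold lower) and 2.00 on day 12 (SE 0.34, adjusted p = 0.000163, 4.01-fold higher). From day 8 to day 10 it rose by 2.44 (SE 0.30, adjusted p = 0.000164), or 5.43-fold, and by 2.18 (adjusted p = 0.000784) without day 8 replicate A. The day 8 difference from growth of -1.02 became -0.77 and lost its call without that array (adjusted p = 0.0505). The day 6 call was lost without either day 6 array or growth replicate C (adjusted p up to 0.094 over the alternatives). A second Hk1 probe set gave -1.88 on day 4 and 1.37 on day 12. Hk2, the insulin-responsive form of muscle, was called only on day 12, at 1.07 (SE 0.20, adjusted p = 0.00048), and fell under 1 log2 without day 12 replicate C.

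Phosphofructokinase makes the step that commits sugar to glycolysis, and its 3 genes moved apart. Pfkp, named for platelets, rose from day 4 on. It read 7.65, 8.15 and 7.96 in growth, 9.49, 9.20 and 9.42 on day 4, 10.11 and 10.07 on day 6, 9.88, 9.50 and 9.56 on day 8, 10.56, 9.94 and 10.02 on day 10, and 10.68 and 10.53 on day 12. All DMSO arrays lay above all growth arrays. The difference was 1.45 log2 on day 4 (SE 0.19, adjusted p = 3.08e-05) and 2.69 on day 12 (SE 0.21, adjusted p = 2.09e-07), or 6.44-fold. The 3 Pfkp probe sets ranged from -0.04 to 2.41 on day 4 and from 2.14 to 3.04 on day 12, so they disagreed on the early rise.

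Pfkm, the muscle form, fell instead. Its mean was 9.46 ± 0.08 in growth, 8.45 ± 0.10 on day 4, 8.33 ± 0.11 on day 6, 8.11 ± 0.33 on day 8, 9.10 ± 0.17 on day 10 and 9.04 ± 0.16 on day 12. It was called lower on days 4, 6 and 8, at -1.01, -1.13 and -1.34, and on day 8 it remained called at -1.16 (adjusted p = 4.48e-05) without replicate A. The day 4 difference lay close to the limit of 1 log2 and fell under it without day 4 replicate B or growth replicate C. On days 10 and 12 the difference from growth was -0.36 and -0.41 and was not called. Pfkl, the liver form, had its lowest mean on day 8 (9.98 ± 0.16) and rose from there to 11.41 ± 0.15 on day 10, by 1.43 log2 (SE 0.20, adjusted p = 0.000531), or by 1.42 (adjusted p = 0.00252) without day 8 replicate A.

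Pfkfb genes encode the enzymes that set fructose 2,6-bisphosphate, the activator of phosphofructokinase. Pfkfb3, the form with the strongest kinase activity, read 4.16, 4.24 and 5.52 in growth, 4.95, 5.25 and 6.57 on day 4, 5.92 and 7.05 on day 6, 5.91, 5.95 and 6.91 on day 8, 7.98, 7.42 and 6.97 on day 10, and 8.55 and 8.98 on day 12. Growth replicate C was high in its group, and all arrays from day 6 on lay above it. The difference from growth was 1.84 on day 6 (SE 0.54, adjusted p = 0.014), 2.81 on day 10 (SE 0.48, adjusted p = 0.0002) and 4.12 on day 12 (SE 0.54, adjusted p = 2.02e-05), a 17.4-fold rise. On day 8 it was 1.61 (SE 0.48, adjusted p = 0.0125), or 1.78 (adjusted p = 0.015) without replicate A. Without growth replicate A the day 6 and day 8 calls were lost (limma adjusted p = 0.0507 and 0.0543). The day 6 call was also lost without day 6 replicate C, where the difference was 1.27. The day 8 call was also lost without day 8 replicate C (1.29, adjusted p = 0.0613) and with the mean of the probe sets (0.69, adjusted p = 0.0965). A second probe set, above the cutoff on 8 arrays, gave only 0.25 on day 10 and 0.56 on day 12. Pfkfb4 ranged from 4.26 to 5.59 and was called on no day, and Pfkfb2 reached 4.15 on 1 array and was under the cutoff on all others.

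The enzymes that split and interconvert the 3-carbon sugars followed. Aldoa, the aldolase of muscle and most other cells, rose from 12.65 ± 0.26 on day 4 to 13.85 ± 0.23 on day 12, by 1.20 log2 (SE 0.22, adjusted p = 0.000564), and its difference from growth of 0.99 on day 12 missed the limit of 1. Aldoc, the brain form, read 6.46, 5.58 and 6.49 in growth, 5.89, 6.67 and 6.42 on day 4, 5.95 and 6.27 on day 6, 5.70, 4.29 and 4.52 on day 8, 7.79, 7.30 and 7.17 on day 10, and 8.66 and 8.24 on day 12. Day 8 replicates B and C were the lowest of all arrays and replicate A lay within growth. The day 8 difference from growth was -1.34 (SE 0.36, adjusted p = 0.00608), or -1.77 (adjusted p = 0.000349) without replicate A. From day 8 to day 10 Aldoc rose by 2.58 (SE 0.36, adjusted p = 0.000445), or by 3.02 (adjusted p = 6.31e-05) without that array. Its second probe set was dim.

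Tpi1, triosephosphate isomerase, has no tested isozyme in the list and so reports this step alone. It read 12.77, 12.50 and 12.45 in growth, 11.72, 11.13 and 11.55 on day 4, 12.34 and 12.58 on day 6, 11.87, 11.93 and 11.81 on day 8, 13.85, 13.27 and 13.52 on day 10, and 14.15 and 13.90 on day 12. Day 4 lay wholly below growth, day 6 overlapped with it, day 8 lay below it again, and days 10 and 12 lay above it. The difference from growth was -1.11 on day 4 (SE 0.19, adjusted p = 0.000277) and 1.45 on day 12 (SE 0.21, adjusted p = 4.4e-05), and from day 8 to day 10 it rose by 1.68 (SE 0.19, adjusted p = 7.63e-05), a step as large without day 8 replicate A (1.68, adjusted p = 0.000391). The day 4 fall was -0.94 without day 4 replicate B and then missed the limit. All 3 Tpi1 probe sets gave a day 4 fall, of -1.16 to -1.06, and a day 12 rise, of 1.15 to 1.71.

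Gapdh, Pgk1 and Pkm, which lie at other steps of the pathway, were not called over all groups because their group means spanned under 1 log2. Their F test adjusted p-values were 0.00197, 0.00337 and 0.0122. Gapdh, read from Affymetrix control probe sets, was -0.54 log2 from growth on day 4 (adjusted p = 0.00501) and 0.15 on day 12. Pgk1, phosphoglycerate kinase, was 0.64 above growth on day 10 (adjusted p = 0.00184) and 0.63 on day 12. Pkm, pyruvate kinase, was -0.89 from growth on day 8 (adjusted p = 0.00138), or -0.97 (adjusted p = 0.00165) without replicate A. None of these 3 genes reached 1 log2 on any day against growth, although these adjusted limma p-values lay under 0.05.

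Phosphoglycerate mutase showed the widest change of the list. Pgam2, the form of heart and skeletal muscle, read 3.12, 4.46 and 3.53 in growth, 6.25, 3.12 and 4.82 on day 4, 5.27 and 5.71 on day 6, 5.74, 7.34 and 8.33 on day 8, 12.07, 11.31 and 11.06 on day 10, and 12.04 and 11.56 on day 12. In growth 1 of 3 arrays passed the dim cutoff, day 4 overlapped with growth, and every array of days 10 and 12 lay above all earlier ones. The difference from growth was 3.43 on day 8 (SE 0.71, adjusted p = 0.00117), or 4.13 (adjusted p = 0.000274) without replicate A. It was 7.78 on day 10 (SE 0.71, adjusted p = 7.88e-07) and 8.09 on day 12 (SE 0.80, adjusted p = 1.58e-06). With growth values under the cutoff raised to 4, these differences were at least 2.98, 7.32 and 7.64, a rise of at least 200-fold on day 12. Within day 8 the order of the 3 arrays in Pgam2 was that of the summed heart muscle markers, 119 on A, 1856 on B and 4546 on C. The orders also matched on day 10, but not in growth or on days 4, 6 and 12. On day 4 the sums were 65 on A, 157 on B and 192 on C, so the array highest in Pgam2 had the lowest sum. Hk1, Hk2, Eno2, Slc2a4 and Pfkfb3 had the same order as Pgam2 on day 8. The part of heart muscle cells in it was not tested. Pgam1, the form of most other cells, had means between 12.26 and 13.33 and was called in none of the 10 comparisons.

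Enolase makes phosphoenolpyruvate. Eno2, the form named for neurons, read 6.19, 6.47 and 7.0 in growth, 6.41, 5.52 and 6.73 on day 4, 6.82 and 7.89 on day 6, 6.49, 7.62 and 7.97 on day 8, 9.35, 8.57 and 9.10 on day 10, and 9.87 and 9.61 on day 12. Days 10 and 12 lay above all other arrays. It was 2.46 above growth on day 10 (SE 0.42, adjusted p = 0.000171) and 3.19 on day 12 (SE 0.46, adjusted p = 4.91e-05), or 9.13-fold. On day 8 the difference of 0.81 (adjusted p = 0.118) became 1.25 (adjusted p = 0.0172) without replicate A, and the rise from day 8 to day 10, 1.65 with all arrays (adjusted p = 0.0174), became 1.21 and lost its call (adjusted p = 0.0777). Of 4 neural markers, Sox1, Pax6 and Neurod1 were dim on all arrays and Tubb3 was above the cutoff, at 8.59 in growth, 5.56 on day 10 and 6.24 on day 12. Eno3, the muscle form, was called only from day 4 to day 12, at 1.64 (SE 0.36, adjusted p = 0.00184).

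Lactate dehydrogenase and the lactate carriers came next. Ldha, whose product favours lactate formation, was 13.36 ± 0.29 in growth, 12.75 ± 0.15 on day 8 and 13.87 ± 0.31 on day 10, and rose by 1.12 (SE 0.19, adjusted p = 0.00198) from day 8 to day 10, which was 1.16 (adjusted p = 0.0057) without day 8 replicate A and fell under 1 log2 without day 10 replicate A. Ldhb, the heart form, moved on more days. Its mean was 10.03 ± 0.20 in growth, 10.87 ± 0.29 on day 4, 9.70 ± 0.27 on day 6, 9.45 ± 0.18 on day 8, 10.56 ± 0.68 on day 10 and 11.24 ± 0.02 on day 12. It fell from day 4 to day 6 (-1.17, SE 0.31, adjusted p = 0.0314) and was called higher than growth on day 12 (1.21, SE 0.31, adjusted p = 0.00378). On day 10 replicate A read 11.35 against 10.15 and 10.19, and without it the rise from day 8 to day 10 (1.11, adjusted p = 0.0161, or 1.16, adjusted p = 0.0395, without day 8 replicate A) was not called. The fall from day 4 to day 6 lost its call under 7 of 28 alternatives, among them each omission of a day 6 array.

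Slc16a3 (MCT4), the carrier that exports lactate from strongly glycolytic cells, had its lowest mean on day 8. Its steps from day 4 to day 6 (0.55, limma adjusted p = 0.484) and from day 6 to day 8 (-1.16, adjusted p = 0.299) were not called. Slc16a3 read 7.73, 7.54 and 8.07 in growth, 6.18, 6.22 and 7.49 on day 4, 6.92 and 7.45 on day 6, 6.14, 5.62 and 6.32 on day 8, 8.11, 7.82 and 8.33 on day 10, and 8.78 and 9.26 on day 12. All arrays of days 4 to 8 lay below growth, with day 4 replicate C close to it, and day 12 lay above. The difference from growth was -1.75 on day 8 (SE 0.32, adjusted p = 0.000488), or -1.81 (adjusted p = 0.00123) without replicate A. From day 8 to day 10 it rose by 2.06 (SE 0.32, adjusted p = 0.00111), or 4.18-fold, and by 2.12 (adjusted p = 0.00357) without that array. The day 4 difference of -1.15 (SE 0.32, adjusted p = 0.00956) missed a limit without day 4 replicate A or B, and in a fit of only the groups compared (adjusted p = 0.0503). The day 12 rise of 1.24 (SE 0.36, adjusted p = 0.00902) lost its call without day 12 replicate C (highest adjusted p over the alternatives 0.0927). Slc16a1 (MCT1), the widespread carrier, had means of 10.36 to 11.62 and was called by the F test but in none of the 10 comparisons.

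At the entry to mitochondria, pyruvate dehydrogenase kinases switch off the dehydrogenase, of which Pdha1 encodes a catalytic subunit. Pdk1, the kinase known as a hypoxia target, read 7.90, 8.63 and 9.31 in growth, 7.65, 8.46 and 8.64 on day 4, 9.26 and 9.48 on day 6, 9.36, 8.87 and 9.57 on day 8, 10.84, 10.17 and 9.85 on day 10, and 11.18 and 11.32 on day 12. Growth was spread widely, and only days 10 and 12 lay wholly above it. The difference was 1.67 on day 10 (SE 0.36, adjusted p = 0.00109) and 2.64 on day 12 (SE 0.40, adjusted p = 6.81e-05), or 6.22-fold, and the 4 Pdk1 probe sets gave 2.17 to 4.09 on day 12.

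Pdk3, a second kinase, read 7.31, 6.95 and 7.37 in growth, 6.47, 6.77 and 7.06 on day 4, 7.20 and 6.78 on day 6, 6.81, 7.75 and 7.59 on day 8, 8.47, 7.75 and 8.54 on day 10, and 8.77 and 8.84 on day 12. Day 12 stood above all other arrays and day 10 above growth. Its difference from growth was 1.04 on day 10 (SE 0.27, adjusted p = 0.0043), close to the limit and lost under 4 of 28 alternatives, and 1.59 on day 12 (SE 0.30, adjusted p = 0.000438). Pdk2 (2.44 to 3.01) and Pdk4 (2.68 to 2.85), the kinases of heart and fasting muscle, were dim on every array. Pdha1 was 10.59 ± 0.05 in growth and 11.61 ± 0.11 on day 4, a difference of 1.01 (SE 0.14, adjusted p = 5.8e-05) that missed the limit under 5 of 28 alternatives. It was 0.13 from growth on day 12, and its second probe set gave 0.70 on day 4 and -0.71 on day 12.

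Pygm, the muscle form of glycogen phosphorylase, which frees glucose phosphate from stored glycogen, was dim on every array of growth and days 4, 6 and 8 (2.42 to 2.62). It read 3.56, 5.48 and 5.16 on day 10 and 5.08 and 6.15 on day 12. Day 10 replicate A was still dim, although its heart muscle markers summed to 42915, the highest of the day 10 arrays. Against the cutoff of 4, the day 12 mean was at least 3.07-fold higher than growth (adjusted p = 3.86e-05) and the day 10 mean at least 1.66-fold (adjusted p = 0.000279), and the day 10 call was lost where values under 4 were set to 4.

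The promoters of the 4 genes that fell most on day 4, Hk1, Slc16a3, Tpi1 and Pfkm, are shown because hypoxia-inducible factors bind ACGTG or GCGTG and Myc binds CACGTG, motifs often described for glycolytic genes. The windows are from RefSeq on GRCm38.p6, run from 250 bases before to 50 after a start site, and are written 5′ to 3′ on the gene's strand. Capitals mark ACGTG and GCGTG read on either strand, and CACGTG holds ACGTG. The Hk1 window (chr10:62340372-62340671, minus strand) is that of the second start in the table and was chosen because it held matches, whereas the first start held 0. The Slc16a3 window is chr11:120948817-120949116 (plus strand), the Tpi1 window chr6:124814109-124814408 (minus strand) and the Pfkm window, the first of 4 starts, chr15:98092339-98092638 (plus strand).
Hk1: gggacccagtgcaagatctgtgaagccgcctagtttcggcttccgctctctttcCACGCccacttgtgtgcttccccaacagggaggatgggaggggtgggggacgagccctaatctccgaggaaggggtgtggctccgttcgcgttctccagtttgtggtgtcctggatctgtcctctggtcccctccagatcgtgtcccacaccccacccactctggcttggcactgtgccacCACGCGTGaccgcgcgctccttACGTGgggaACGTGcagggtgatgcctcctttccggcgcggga
Slc16a3: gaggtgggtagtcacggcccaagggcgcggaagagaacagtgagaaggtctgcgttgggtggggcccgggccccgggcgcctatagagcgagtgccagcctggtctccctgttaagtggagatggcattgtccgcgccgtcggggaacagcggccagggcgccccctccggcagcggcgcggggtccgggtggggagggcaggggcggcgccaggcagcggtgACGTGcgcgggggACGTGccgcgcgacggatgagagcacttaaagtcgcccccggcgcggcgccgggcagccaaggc
Tpi1: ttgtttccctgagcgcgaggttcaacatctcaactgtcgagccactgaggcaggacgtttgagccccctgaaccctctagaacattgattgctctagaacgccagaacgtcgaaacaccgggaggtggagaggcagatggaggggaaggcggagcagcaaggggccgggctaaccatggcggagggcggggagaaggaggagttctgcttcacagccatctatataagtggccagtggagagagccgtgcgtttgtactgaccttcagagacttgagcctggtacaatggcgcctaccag
Pfkm: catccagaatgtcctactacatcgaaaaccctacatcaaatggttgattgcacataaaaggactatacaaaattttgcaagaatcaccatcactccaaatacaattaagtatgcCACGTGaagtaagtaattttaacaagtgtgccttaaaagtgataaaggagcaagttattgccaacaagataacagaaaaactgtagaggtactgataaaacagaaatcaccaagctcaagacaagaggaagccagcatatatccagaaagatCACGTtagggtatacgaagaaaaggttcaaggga
The Hk1 window held 2 ACGTG and 3 GCGTG, the Slc16a3 window 2 ACGTG, and the Pfkm window 3 ACGTG, of which 2 are the 2 strands of 1 CACGTG. The letters of these motifs were not in this Tpi1 window. Of the 31 measured members, 29 had windows in the table, 43 in all. ACGTG or GCGTG stood in 34 of the 43 windows (79.1%), against 43.8% of all 32851 windows, and CACGTG in 6 (14%), against 7.15%. The median GC content was 60.7% in the members' windows and 52.7% in all windows, and its part in these shares was not tested. A match is a description of letters and not a bound site.

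The promoter of Pgam2 (chr11:5803747-5804046, minus strand, same build), the gene with the widest change, is shown for the motifs of muscle genes and was chosen after its values were seen. Capitals mark CANNTG, the E-box, and CTANNNNTA, a loose form of the site bound by Mef2 factors, on either strand, where N is any base.
Pgam2: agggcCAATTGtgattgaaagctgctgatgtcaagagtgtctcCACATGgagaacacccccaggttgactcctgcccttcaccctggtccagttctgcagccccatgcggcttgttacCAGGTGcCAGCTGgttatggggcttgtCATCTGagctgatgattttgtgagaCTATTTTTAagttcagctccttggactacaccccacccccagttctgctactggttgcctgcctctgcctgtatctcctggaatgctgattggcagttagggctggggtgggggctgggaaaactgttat
It held 5 CANNTG and 1 CTANNNNTA. CANNTG stood in 72.3% of all windows and CTANNNNTA in 21%, so neither motif in this loose form is rare at this length. A stricter Mef2 site was not counted.

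Within an array, the difference between 2 isozymes or carriers of 1 step was followed over time. Such a difference is not a ratio of transcript numbers, but its change between groups shows unequal change of both genes. Of 7 pairs tested, the 5 arrays of days 10 and 12 differed from the 3 growth arrays in 6 (two-sided exact permutation test over 56 arrangements, smallest possible p 0.0179, Benjamini-Hochberg adjusted over the 7 pairs). Pgam2 minus Pgam1 moved from -9.09 ± 0.80 to -1.45 ± 0.27, a shift of 7.64 towards the muscle form (exact p = 0.0179, adjusted 0.025), or of at least 7.19 with growth Pgam2 values under the cutoff raised to 4. The other pairs did not all move towards the muscle or heart form.

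Pfkm minus Pfkp moved from 1.54 ± 0.22 in growth to -1.27 ± 0.33, a shift of -2.81 away from the muscle form (exact p = 0.0179, adjusted 0.025). Every DMSO array from day 4 on lay below every growth array. Slc2a3 minus Slc2a1 shifted by -2.09, Slc16a3 minus Slc16a1 by 1.16 and Aldoc minus Aldoa by 0.97 (exact p = 0.0179, adjusted 0.025 each), all with every late array beyond all growth arrays. Hk2 minus Hk1 was 2.06 to 2.61 in growth, 4.21 to 4.51 on day 4 and 1.37 to 2.02 on days 10 and 12, a late shift of -0.69 towards Hk1 (exact p = 0.0357, adjusted 0.0417). The Hk2 minus Hk1 call was lost under 9 of 14 alternatives and the Aldoc minus Aldoa call under 9 of 13 (adjusted p up to 0.117). These include the fits without a growth array or with day 10 alone, where no pair was called. Both calls were also lost after quantile normalization was applied again, and without day 10 replicate A or day 12 replicate A. With the mean of the probe sets the Hk2 minus Hk1 shift was -0.45 (exact test, adjusted p = 0.104). Ldhb minus Ldha was -3.33 ± 0.49 in growth and -3.13 ± 0.36 late, and the shift of 0.20 was within the spread (exact p = 0.571). It was highest on day 4, at -2.38 to -2.17.

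**Figure D4:**
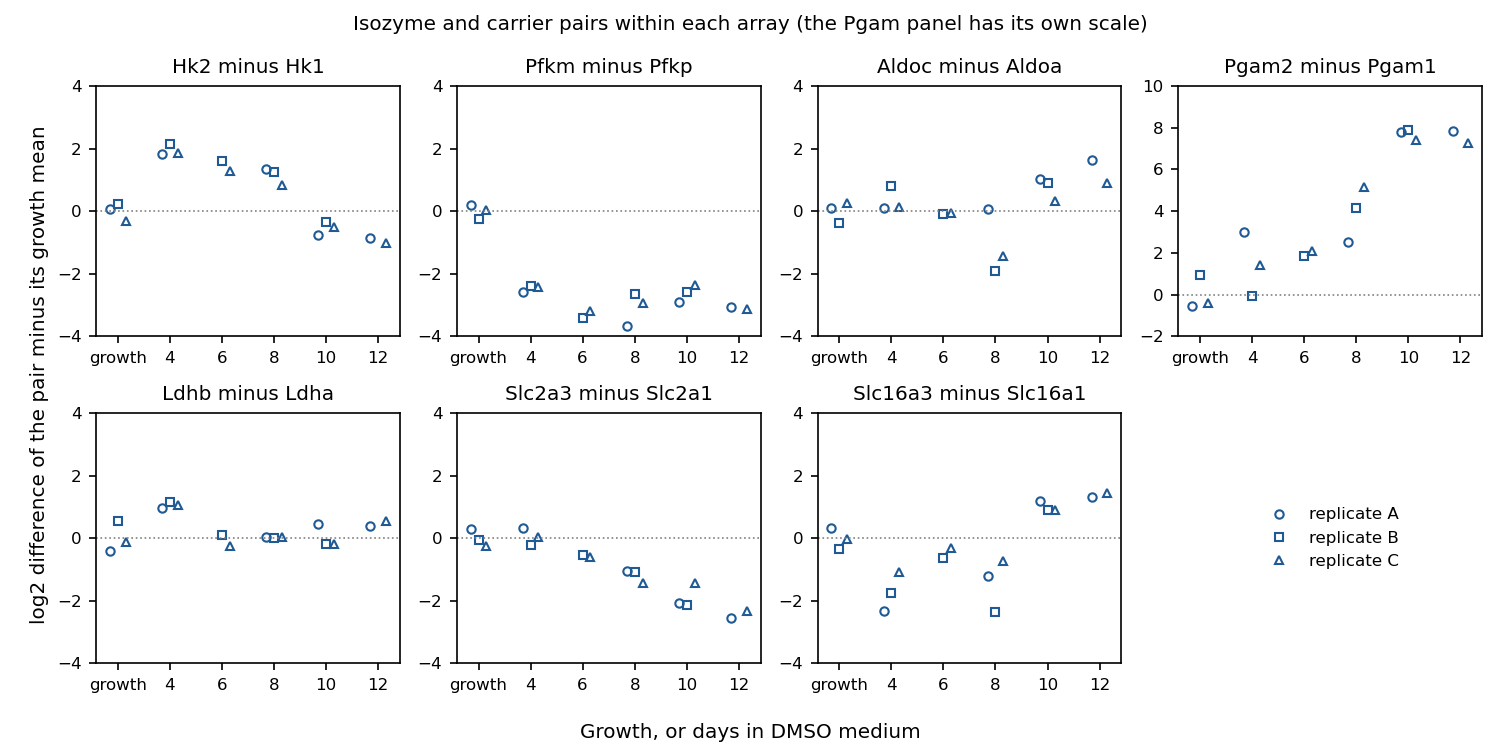
Each panel plots, for every array, the log2 difference between the 2 genes of a pair minus its growth mean (vertical axis, with a wider scale for Pgam2 minus Pgam1) by group (horizontal axis), with replicates A, B and C as circles, squares and triangles. Hk2 minus Hk1 is above 0 on days 4 to 8 and below it on days 10 and 12, Pfkm minus Pfkp lies below 0 on all DMSO arrays, and Ldhb minus Ldha ends near 0.

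Genes around the pathway were described from lists that were also drawn up with earlier results known. The shares of all genes called higher and lower against growth are those given above (13.3% and 13.6% on day 4, 22.5% and 19.3% on day 12). Of 14 tested hypoxia-induced genes outside glycolysis, 3 rose and 3 fell on day 4, 7 rose and 1 fell on day 6, 7 rose and 0 fell on day 8, the same counts without replicate A, 12 rose and 0 fell on day 10, and 13 rose and 0 fell on day 12, with a median day 12 difference of 3.25 log2. P4ha2, a collagen prolyl hydroxylase, went from 6.08 ± 0.48 in growth to 9.34 ± 0.19 on day 6 and 10.90 ± 0.31 on day 12, and Ndrg1, a stress-response gene, from 5.41 ± 1.44 to 9.56 ± 0.05 and 11.26 ± 0.37. P4ha1 was 3.52 above growth on day 12 (adjusted p = 2.38e-07). Adm, the peptide adrenomedullin, was dim until day 8 and reached 8.06 ± 0.19 on day 12, at least 4.06 above growth. Epas1, which encodes the factor HIF-2alpha, fell on day 4 (-1.28, adjusted p = 0.000183) and rose from day 4 to day 6 by 3.66 (adjusted p = 3.93e-07). In that interval 3.52% of all tested genes were called higher. A link between Epas1 and the members was not tested. Of the 9 tested regulators, 3 rose and 1 fell on day 12 (22.5% and 19.3% of all genes). Myc rose on day 4 (2.88, adjusted p = 0.00102) and was lower than growth on day 10 (-2.58, adjusted p = 0.00157), while Mycn fell on day 12 (-2.85, adjusted p = 2.16e-06) and Ppargc1a, a regulator of mitochondria, rose from a dim level in growth to 7.33 ± 0.23 on day 12, by at least 3.33 against the cutoff (adjusted p = 3.34e-06).

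Of 11 tested genes of glycogen metabolism other than Pygm, 5 rose and 1 fell on day 8 (16% and 15% of all genes), when Pygm was dim. On day 12, 8 rose and 0 fell (22.5% and 19.3% of all genes), with a median of 2.21. Gyg, glycogenin, which starts each glycogen particle, was 2.57 above growth on day 4 (adjusted p = 3.63e-06) and 4.09 on day 12 (adjusted p = 8.95e-08), Gbe1, the branching enzyme, was 3.65 above (adjusted p = 2.24e-06), Pygl 3.20 (adjusted p = 7.26e-05) and Pygb 2.21 (adjusted p = 3.51e-06). Of 7 tested genes of the hexosamine and serine branches, 1 rose and 6 fell on day 12 (22.5% and 19.3% of all genes), with a median of -2.66. Gfpt1, the first enzyme of hexosamine synthesis, was the one that rose (1.60, adjusted p = 0.000284). Psat1, of serine synthesis, fell by 3.47 (adjusted p = 2.18e-07), and Shmt1 and Shmt2, which take 1-carbon units from serine, fell by 3.78 (adjusted p = 1.23e-06) and 2.72 (adjusted p = 1.22e-05). Gfpt2, of hexosamine synthesis, rose by 2.54 on day 4 (adjusted p = 0.000287) and was 1.44 below growth on day 12 (-1.44, adjusted p = 0.0188).

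In the remaining lists the day 12 counts are to be read against 22.5% of all genes higher and 19.3% lower. Of 6 tested pentose phosphate genes, 1 rose and 2 fell on day 12, and Taldo1, transaldolase, was lower on day 4 (-1.75, adjusted p = 3.43e-05). Tkt, transketolase, and Rpe were lower on day 12 (-1.27, adjusted p = 6.85e-05, and -1.40, adjusted p = 5.86e-06), and Rpia was higher (1.21, adjusted p = 0.000723). Of 3 tested gluconeogenic genes, 2 fell on day 12, which were Fbp2 (4.48 ± 0.15 in growth and dim on day 12) and Pck2 (-1.74, adjusted p = 0.000938). The growth mean of Fbp2 lay less than 1 log2 above the cutoff of 4, so its call rests on values under the cutoff. Of 8 genes of pyruvate entry, 1 rose and 1 fell on day 12. Mpc1, a subunit of the mitochondrial pyruvate carrier, was called higher than growth on every day. Its mean was 6.18 ± 0.25 in growth, 7.43 ± 0.13 on day 4, 7.34 ± 0.15 on day 6 and 9.31 ± 0.08 on day 12 (3.14 above growth, adjusted p = 2.45e-08). Pcx, pyruvate carboxylase, was lower on day 12 (-1.22, adjusted p = 0.00212). Pdhb had a mean of 11.72 in growth, 10.74 on day 4, 10.69 on day 6 and 10.72 on day 8. It was called lower only on day 6 (-1.03, adjusted p = 0.000129). Days 4 and 8 missed only the limit of 1 log2 (limma adjusted p = 6.06e-05 and 4.47e-05). On days 10 and 12 Pdhb was still below growth, by -0.61 and -0.75, and was not called. Pdp2, a dehydrogenase phosphatase that was dim in growth, was called on day 4 (4.42 ± 0.88, at least 0.42 above growth against the cutoff, adjusted p = 0.000328). Of 6 other glycolytic isozymes and enzymes, 0 rose and 4 fell on day 12, while Bsg, the partner that brings Slc16a carriers to the membrane, was 0.82 above growth (adjusted p = 0.00644) and rose by 1.57 from day 4 to day 12 (adjusted p = 8.28e-05). Gpd2, Adpgk and Bpgm were 3 of the 4, at -2.03 (adjusted p = 1.37e-05), -1.35 (adjusted p = 9.64e-05) and -1.44 (adjusted p = 0.000445).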

How the data were processed

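The authors deposited 1 value per probe set and array, and GCRMA, which corrects background by probe sequence, normalizes by quantiles and summarizes probes, is named per the submitters' processing notes. The deposited values, 0.86 to 15.86, were read as log2 from this range, since the base is not given in the sources used here. Array medians ran from 3.16 to 3.27. Of 45101 probe sets, 34958 named a single gene, 932 several and 9211 none in the platform table; Gapdh was read from control probe sets. No array column was left unmapped. Limma 3.58.1 in R 4.3.3 fitted 1 mean per group to all 16 arrays (10 residual degrees of freedom) over 10803 genes, and was tested on simulated data. The members and gene lists were chosen with earlier results of these data known. All members are named, and array values are given for those with group means at least 2 log2 apart that passed the F test. From each other list up to 4 genes that passed the F test, with the widest range, are named. Promoters were shown for up to 4 members with the largest day 4 fall. Isozyme pairs were tested by exact permutation. Alternatives changed the filter, normalization, floor, probe set rule, fit, weights and arrays.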

Additional observations from a re-analysis of the deposited data

Results flagged for a closer look

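For 3 members the day 12 effect and the day 4 effect, both against growth, had opposite signs and both were called. The difference between these effects, which is the day 12 minus day 4 difference, was 3.51 log2 for Hk1, 2.56 for Tpi1 and 2.39 for Slc16a3. Choosing genes called in both directions fixes a difference of at least 2 log2, so these values are a description and no p is given. In all 3 genes every day 12 array lay above every day 4 array. The 18S control signal was also higher on day 12 than on day 4, and its part was not tested.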

How the results depend on the processing

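Over all members, pairs and alternatives, 7727 values kept their side of the threshold, 98 became called, 82 lost their call and 0 called values changed sign. The member counts moved by more than 1.5 times in these cases, whose cause was not tested unless stated. From day 4 to day 6 the count of 3 became 6 with array weights and 1 in a fit of only the groups compared, and from day 6 to day 8 the count of 0 became 4 with array weights. Without the minimum difference of 1 log2, a looser rule, the counts were 17 on day 8, 18 on day 10 and 18 from day 8 to day 10, in place of 9, 11 and 11. Leaving out each array in turn gave 3 to 6 on day 4 (3 without replicate B), 0 to 3 from day 6 to day 8 (3 without day 8 replicate A, which were Pfkl, Aldoc and Slc2a4), 0 to 1 from day 10 to day 12 (1 without day 10 replicate A) and 0 to 5 isozyme pairs. The pair count was 0 without any 1 growth array and 0 with day 10 alone, because fewer arrangements then exist than the adjusted threshold needs. Whether a replicate letter marks a shared culture or day was not tested. Among 35 correlations of same-letter deviations 13 exceeded 0.1 (range -0.207 to 0.324, median 0.063), and pairs of different letters were not compared. With the letter as a replicate block the counts against growth stayed at 6, 6, 9, 11 and 15, and 3 were called from day 4 to day 6, then without the fall of Ldhb. Days 6 and 12 rest on 2 arrays each, and signals near the cutoff, as in Pgam2 before day 6, Pygm and Pfkfb3 in growth, carry little information.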

Other observations

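Probe sets that name several genes entered no comparison. One shared by Hk1 and other genes (6 named) had means between 14.69 in growth and 15.02 on day 12, without the day 4 dip of the single-gene Hk1 probe sets. One shared by Gapdh (5 genes named) stayed between 13.38 and 13.88, and another (2 genes named) lay at 6.30 in growth, 5.73 on day 4 and 7.14 on day 12.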
